A study of Homo sapiens with 4 samples.

Results

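YAP1 and WWTR1 (TAZ), the transcription factors TEAD1 and TEAD4, and 6 genes that are widely used as readouts of these proteins (CYR61, CTGF, ANKRD1, AMOTL1, AMOTL2 and LATS2) were followed in parental SUM159 cells and in 3 NOS2 knockout clones. The 10 genes were chosen by name from the 57500 genes counted in each library, and 9 of them were among the 22511 genes with enough counts to be tested. ANKRD1 had at most 7 counts in a library and is described by its counts. CYR61 and CTGF, now also called CCN1 and CCN2, are given under the older symbols used by the annotation, GENCODE v29.

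SUM159 is a human triple-negative breast cancer cell line of metaplastic origin. The series compared gene expression in the parental line with that of cells that lack NOS2, the gene for inducible nitric oxide synthase (iNOS), an enzyme that makes nitric oxide. NOS2 was targeted with a commercial pair of CRISPR nickases carried on a plasmid (NOS2 Double Nickase Plasmid), puromycin killed cells without it, and surviving clones were kept on the strength of their iNOS protein and of their nitrite and nitrate output. There was 1 library of parental cells and 1 library of each of 3 clones, named clone 1, clone 5 and clone 6 and together called NOS2KO. No control that had passed through transfection, puromycin and cloning was among the libraries, so loss of NOS2 and the making of a clone cannot be told apart. Nothing in the labels says how many cultures stood behind a library, and each p-value below measures only the spread between the 3 clones.

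In the Hippo pathway, the MST and LATS kinases, with their partners SAV1 and MOB1, phosphorylate YAP and TAZ and keep them out of the nucleus. Unphosphorylated YAP and TAZ enter the nucleus, bind TEAD proteins, which recognise the DNA sequence GGAATG, and switch on genes for growth, adhesion and matrix. Among these genes are CTGF and CYR61, which encode secreted matrix proteins, and LATS2 and AMOTL2, whose products hold YAP back. Most of this control acts on the protein and its location, which RNA levels do not show.

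The libraries held 90467395, 122171287, 101337366 and 97362293 counts. These and all values below are in the order parental, clone 1, clone 5 and clone 6, and levels are in CPM, counts scaled to library size and between libraries by the trimmed mean of M-values (TMM). NOS2 itself had 2, 3, 18 and 1 counts, so its transcript was at the limit of detection in parental cells too and did not check the genotype. The library labelled clone 5 had the highest of these counts, and it is named in that way below. Of the triple-negative receptors, PGR had at most 3 counts and ESR1 at most 79, and ERBB2 was at 48.3, 55.6, 106 and 99.1 CPM. None of 4 mesenchymal and 4 epithelial markers passed the criterion of the study in edgeR, an unadjusted p below 0.05 with a log2 fold change beyond 1 in either direction, which 9.58% of all tested genes passed. The study took its p from a Wald test, the kind of test that DESeq2 gives here. In DESeq2, where 12.1% of genes passed the criterion, 1 of each list did. Of the mesenchymal ones, VIM (1655 CPM in parental cells, 2890 to 3855 CPM in the clones) and FN1 were higher in every clone, ZEB1 (83.7 CPM in parental cells, 39.5 to 57.8 CPM in the clones) was lower in every clone and CDH2 was mixed. Of the epithelial ones, KRT8 (254, 416, 806 and 525 CPM) and KRT18 (303, 419, 467 and 326 CPM) were higher in every clone, and CDH1 and EPCAM had at most 44 counts. Among markers of other cells, PECAM1 (endothelium) did not exceed 16.1 CPM, while PTPRC, which encodes the leukocyte protein CD45, was at 4.45, 68.4, 105 and 41.7 CPM. The 2 genes together summed to 20.6 CPM in parental cells and to between 50.3 and 112 CPM in the clones. Of 7 further leukocyte genes, looked at after PTPRC was seen, 6 were tested and none passed the criterion in edgeR or in DESeq2: 1 was higher in every clone, 2 were lower in every clone and 3 were mixed. Their summed level was 14.3, 2.81, 7.45 and 12.2 CPM, most of it from CD14 (12.8, 2.29, 4.28 and 11.3 CPM), and the other 6 genes summed to 1.48, 0.514, 3.17 and 0.872 CPM.

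The sequence recognised by TEAD was looked for in RefSeq promoter windows (assembly GRCh38.p14), each of 300 bases from 250 bases before a transcription start to 50 bases after it. Of the 10 genes 7 matched an entry, with 9 windows in all, and CYR61, TEAD1 and TEAD4 had none. GGAATG was searched on both strands, so that CATTCC counts too, and 14% of all 35116 windows held at least 1 match. CTGF is shown in full because its window held 3 matches, a number reached in 0.128% of windows. The 250 bases before its start, at chr6:131951373-131951622 on the minus strand, are printed 5′ to 3′ with the matches in capitals. The matches begin 169, 104 and 95 bases before the start.
CTGF: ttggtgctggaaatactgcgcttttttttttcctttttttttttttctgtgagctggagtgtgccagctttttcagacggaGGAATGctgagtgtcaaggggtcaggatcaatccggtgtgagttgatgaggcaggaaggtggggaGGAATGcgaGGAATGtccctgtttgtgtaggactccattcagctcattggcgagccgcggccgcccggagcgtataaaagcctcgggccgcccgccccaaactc

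ANKRD1 held 2 matches, and YAP1, AMOTL2 and LATS2 held 1 each, so 5 of the 7 genes had one. The windows of WWTR1 and AMOTL1 held none. These stretches of 30 bases are shown so that the letters around the match can be compared, again with the match in capitals and on the strand of the gene. They lie at chr11:102110273-102110302 (YAP1, plus strand), chr10:90921290-90921319 and chr10:90921198-90921227 (ANKRD1, minus strand), chr3:134374499-134374528 (AMOTL2, minus strand) and chr13:21061560-21061589 (LATS2, minus strand).
YAP1: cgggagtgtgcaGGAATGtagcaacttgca
ANKRD1, first match: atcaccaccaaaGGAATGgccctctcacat
ANKRD1, second match: gacactgagtctGGAATGaaaattcacctg
AMOTL2: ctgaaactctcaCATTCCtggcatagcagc
LATS2: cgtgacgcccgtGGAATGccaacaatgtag
The match in LATS2 lies after the start and the others before it. The AP-1 sequence TGANTCA, bound by FOS and JUN proteins and counted apart from the TEAD sequence on both strands, was present in 7.71% of all windows and in 1 of the 9 windows here, that of ANKRD1. A match is only a match of letters, and no binding was measured.

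CTGF and CYR61 were the only 2 of the 9 tested genes that were higher in every clone than in parental cells, by 4.77- to 10.5-fold for CTGF and by 2.11- to 8.19-fold for CYR61. The genes for YAP1, TEAD1, TEAD4 and AMOTL1 were lower in every clone, with smaller differences, and WWTR1, AMOTL2 and LATS2 were higher in some clones and lower in others. In all, 28.6% of tested genes were higher in every clone and 30.5% were lower in every clone, and of the 9 genes these were 2 and 4. By contrast, 7.37% of tested genes were higher by more than 1 on the log2 scale in every clone, and these included both CTGF and CYR61, while 6.25% were lower by as much, with no gene of the 9. In a single clone a difference beyond 1 in either direction was common, at 36.8%, 35.4% and 35.3% of tested genes in clone 1, the library labelled clone 5 and clone 6, and it was seen for 2, 3 and 2 of the 9 genes. In bulk RNA, fewer cells that express a gene and less RNA per cell cannot be told apart.

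**Figure D1:**
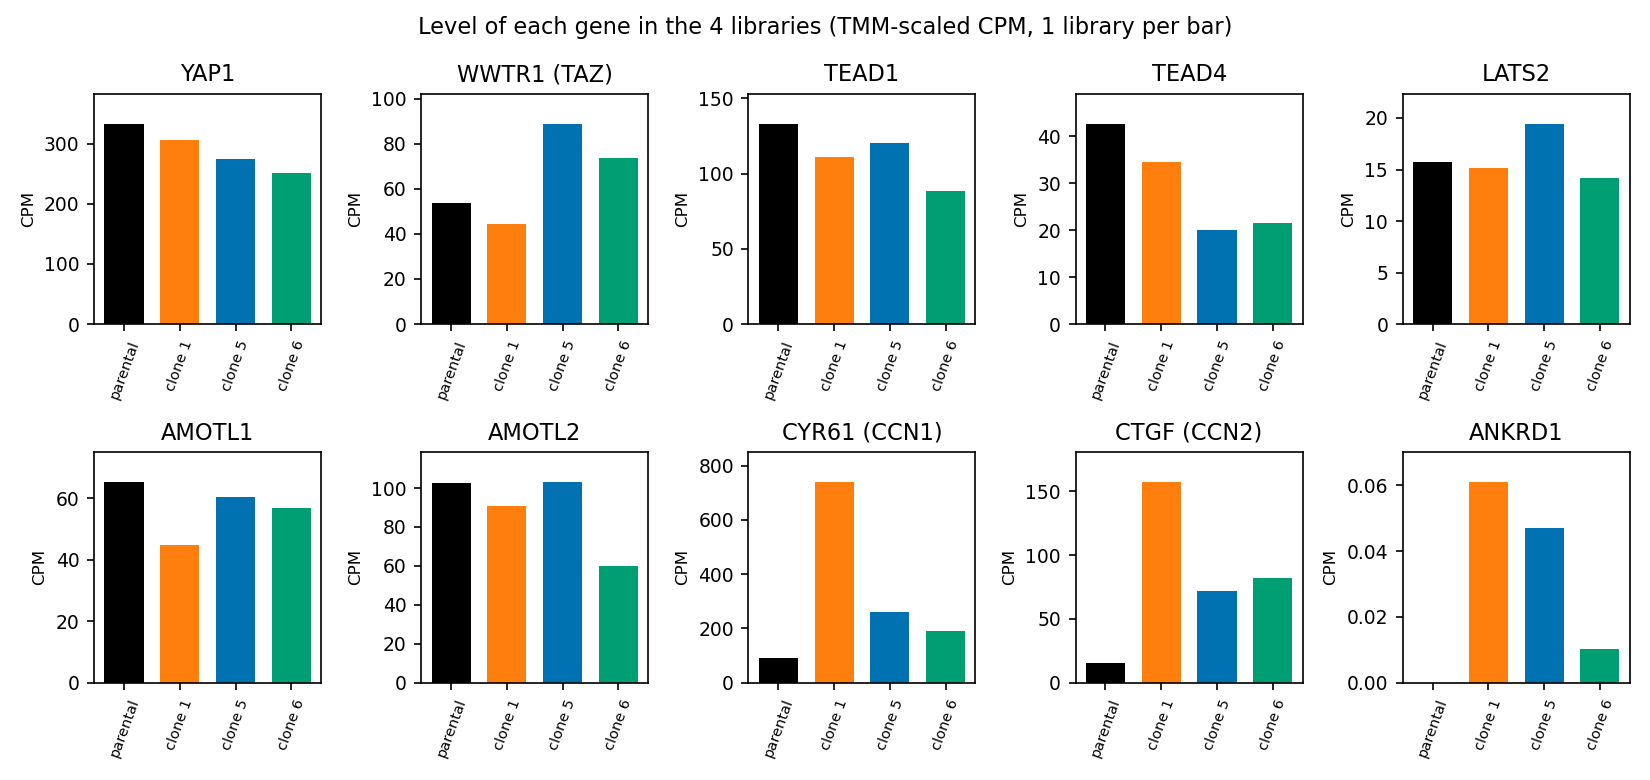
TMM-scaled CPM of each gene in the parental library and in the libraries labelled clone 1, clone 5 and clone 6. Each bar is 1 library, each panel has its own axis from 0, and CTGF and CYR61 are the panels of genes with ample counts in which all 3 clones stand above parental cells. The bars of ANKRD1 stand for 0, 7, 5 and 1 counts.

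YAP1 (chr11:102110461-102233423, GRCh38), the main coactivator of the pathway, was at 334, 306, 274 and 252 CPM. Every clone was below parental cells, but the largest difference was small, −0.40 on the log2 scale (clone 6). The fitted log2 fold change of the clones against parental cells was −0.27 ± 0.30 (SE, n = 3 clones against 1 library; adjusted p = 0.750 by the quasi-likelihood test of edgeR, with p-values adjusted by Benjamini-Hochberg over all tested genes). WWTR1 (chr3:149517235-149736714), which encodes TAZ, the paralog of YAP, was at 53.7, 44.4, 88.9 and 73.4 CPM. Clone 1 was below parental cells, and the other clones were above them, so the clones differed among themselves more than their mean differed from parental cells: the library labelled clone 5 was 2.00-fold over clone 1. The fitted log2 fold change of WWTR1 was 0.36 ± 0.45 (SE), with an adjusted p of 0.783 in the same edgeR fit. Its antisense gene WWTR1-AS1, which shares 795 exon bases with it, had 20, 79, 31 and 49 counts.

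Per kilobase of exon, YAP1 was more abundant than WWTR1 in every library. The YAP1 level was 8.30 times that of WWTR1 in parental cells and 9.22 times in clone 1, and 4.12 and 4.59 times in the libraries labelled clone 5 and clone 6. The summed level of the 2 coactivators was 59.4 CPM per kilobase in parental cells and between 48.8 and 54.1 in the clones. The ratio thus split clone 1 from the other clones, whereas the sum with TMM scaling was lower in all 3. In the library labelled clone 5, upper quartile scaling put the log2 ratios to parental cells at −0.15 for YAP1 and 0.86 for WWTR1. With TMM they were −0.28 and 0.73. The sum was not computed under the other scaling.

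TEAD1 (chr11:12674591-12944483) was at 133, 111, 120 and 88.4 CPM. Its fitted log2 fold change was −0.32 ± 0.31 (SE; edgeR adjusted p = 0.706). TEAD4 (chr12:2959330-3040673) was at 42.7, 34.6, 20.1 and 21.6 CPM, a mean of 25.4 ± 7.96 CPM in the clones (SD, n = 3). Clone 1 was near parental cells, at −0.30 on the log2 scale, and the libraries labelled clone 5 and clone 6 were at −1.09 and −0.98. The fit over the 3 clones gave −0.75 ± 0.42 (SE; edgeR adjusted p = 0.536, and 0.445 to 0.721 over the alternatives that kept all 3 clones). Without clone 1 the value was −1.03.

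The other TEAD genes were read from a list of 10 coactivators, TEAD genes and VGLL cofactors, of which 9 were tested. In edgeR 1 gene of that list, TEAD2, passed the criterion of the study, beside 9.58% of all tested genes. In DESeq2 2 genes of the list passed it, TEAD2 and VGLL3, beside 12.1% of all tested genes. In edgeR without clone 1, TEAD4 passed the criterion too, as did 3399 of all genes, against 2157 with clone 1. TEAD2 was at 43.5, 93.6, 78.1 and 135 CPM (log2 fold change 1.23 ± 0.40 SE; edgeR adjusted p = 0.402). TEAD3 was at 35.7, 41.5, 55.0 and 44.1 CPM, above parental cells in each clone. The summed level of the 4 TEAD genes was 58.0 CPM per kilobase in parental cells and between 64.8 and 77.8 in the clones. TEAD4 was the most abundant TEAD per kilobase in parental cells, with 32.4% of that sum, and it held 21.4%, 13.7% and 12.2% in the clones. TEAD2 held 25.1% in parental cells and 44.2%, 40.4% and 58.1% in the clones, so it was the most abundant in each of them. Shares are given per library with no test. Among the cofactors, VGLL3, which binds TEAD in place of YAP, was at 2.82, 16.0, 6.57 and 6.68 CPM (log2 fold change 1.79; edgeR adjusted p = 0.468), and VGLL4, a repressor of TEAD, was at 26.0, 17.2, 46.4 and 32.5 CPM.

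**Figure D2:**
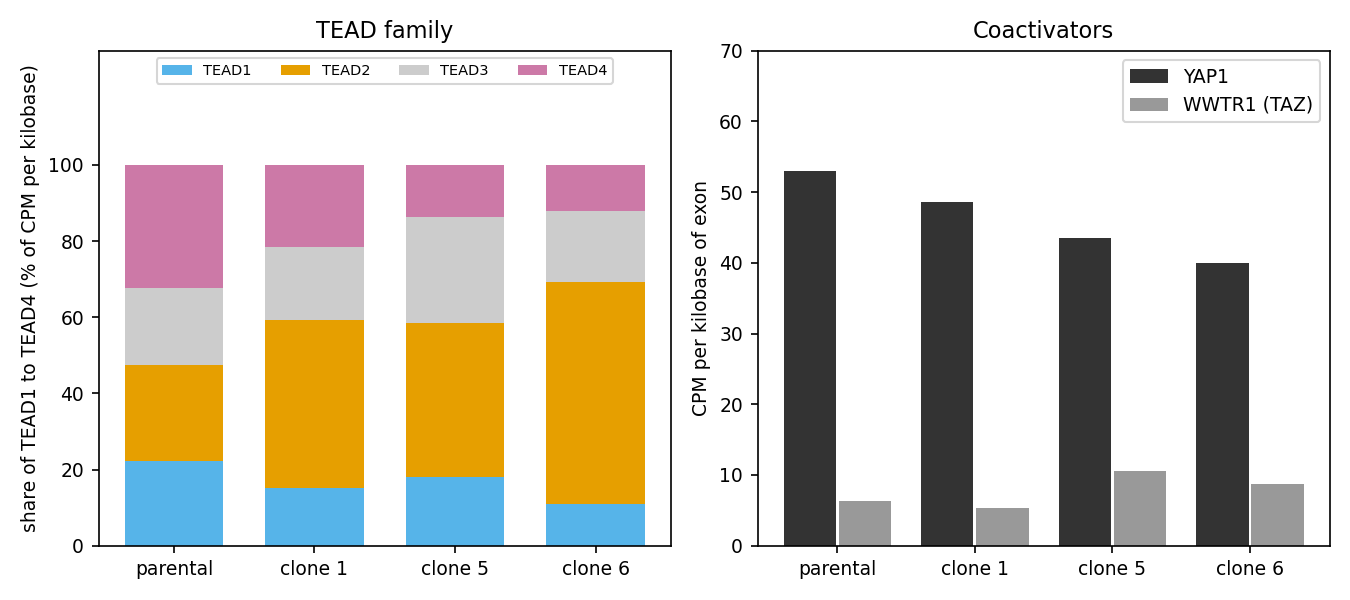
Left, share of each TEAD gene in the summed CPM per kilobase of TEAD1 to TEAD4, in percent, for the parental library and the 3 clone libraries. Right, CPM per kilobase of YAP1 and WWTR1 in the same libraries. The TEAD4 share is 32.4% in parental cells and no more than 21.4% in a clone, and the TEAD2 share is 25.1% and at least 40.4%.

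CTGF (chr6:131948176-131951373), which encodes a secreted matrix protein and is the most used readout of YAP, had 1354 counts in parental cells and 18029, 7620 and 8098 in the clones. In CPM these were 15.0, 157, 71.5 and 82.1, a mean of 104 ± 46.7 CPM in the clones (SD, n = 3). All clones were well above parental cells and clone 1 was the highest, by more than the difference between the other clones. The ratios to parental cells were 10.5 (95% interval 9.93 to 11.1), 4.77 (4.50 to 5.06) and 5.48 (5.18 to 5.81), with exact intervals that cover counting error only. The fitted log2 fold change was 2.79 ± 0.53 (SE; edgeR adjusted p = 0.332). CTGF was the 1 gene of the 9 that passed the criterion of the study in edgeR (11.1%, beside 9.58% of all tested genes). In DESeq2 it was passed by 2 of the 9, CTGF and CYR61, beside 12.1% of all tested genes. A DESeq2 Wald test gave an adjusted p of 0.000756, and the value stayed between 2.36 and 3.02 when each clone was left out.

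The low and the high adjusted p come from the same counts under different models of the spread. With 1 parental library and 3 clones, an exact permutation test of 1 gene cannot give a two-sided p below 0.25. In edgeR 1 gene of 22511 (0.00444%) had an adjusted p under 0.05, and 11.5% had an unadjusted p under 0.05. In DESeq2 4.86% of genes had an adjusted p under 0.05. An antisense gene, AL133346.1, shares 195 exon bases with CTGF (8.34% of its length) and had 16, 191, 116 and 90 counts, far below those of CTGF. The strand setting of the counting is not given in the sources used here, so reads of the shared bases cannot be assigned to either gene.

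CYR61 (chr1:85580761-85583962), a secreted matrix protein of the same CCN family, was at 90.3, 739, 260 and 191 CPM, a mean of 397 ± 299 CPM in the clones (SD, n = 3). Each clone was above parental cells, and clone 1 was far above the others. The ratios to parental cells were 8.19 (95% interval 8.01 to 8.38), 2.88 (2.81 to 2.95) and 2.11 (2.06 to 2.17). The fitted log2 fold change was 2.14 ± 0.84 (SE; edgeR adjusted p = 0.479, and 0.129 to 0.578 over the alternatives that kept all 3 clones). CYR61 thus missed the criterion of the study in edgeR and passed it in DESeq2 (adjusted p = 0.129), where 12.1% of tested genes did. Without clone 1 the fitted value was lower, 1.32, and passed the criterion, as did 3399 of all genes, against 2157 with clone 1.

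CYR61 and CTGF did not follow each other closely over the clones. The log2 ratio of clone 6 to clone 1 was −1.96 for CYR61 and −0.94 for CTGF. Between clone 6 and the library labelled clone 5, the log2 ratio was −0.45 for CYR61 and 0.20 for CTGF. The CYR61 level per kilobase was 5.74 times that of CTGF in parental cells, and 4.48, 3.47 and 2.21 times in the clones. Over the 3 log2 ratios to parental cells, CTGF lay at a Euclidean distance of 1.60 from CYR61, and 312 of the 10709 genes that reached 10 CPM in some library lay nearer. The nearest to CYR61 were TSPAN13 (0.205), TAGLN (0.232) and EBP (0.236). The nearest to CTGF were MXD3 (0.1245), ATP8B3 (0.367) and TK1 (0.393). These are distances over 3 ratios that share the parental library, and they are given as a description.

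Relative to YAP1, both genes stood higher in the clones. The CYR61 level per kilobase was 0.694 times that of YAP1 in parental cells and 6.19, 2.44 and 1.94 times in the clones. The CTGF level was 0.121 times that of YAP1 in parental cells and 1.38, 0.703 and 0.877 times in the clones. The log2 ratios of YAP1 itself were between −0.40 and −0.12, so most of the span in these ratios lies in CYR61 and CTGF.

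ANKRD1 (chr10:90912096-90921276), a muscle and stress protein that is a strong YAP target in other cells, had 0, 7, 5 and 1 counts. The exact 95% interval of the ratio to parental cells had a lower limit of 1.14 in clone 1 and of 0.777 in the library labelled clone 5, so a difference was not detectable at this depth in the latter or in clone 6. The 0 counts in parental cells allow a level of up to 0.0332 CPM (3 counts).

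**Figure D3:**
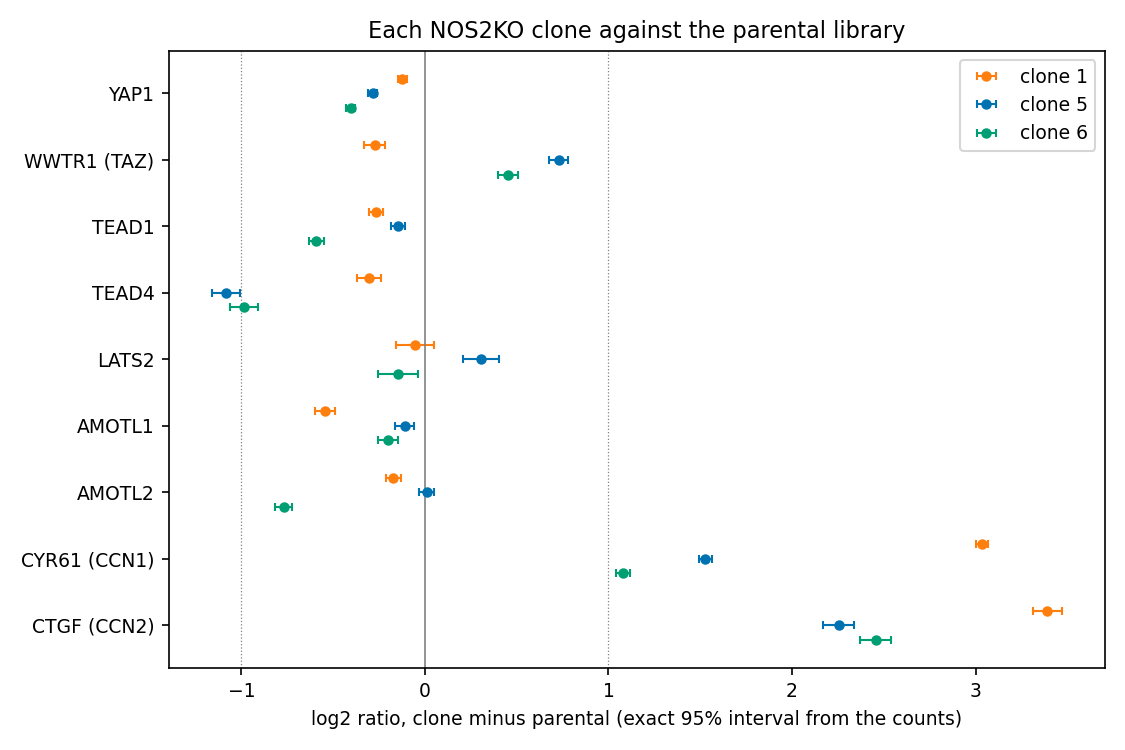
Log2 ratio of each clone to the parental library for the 9 tested genes, with exact 95% intervals from the counts (counting error only). Dotted lines mark −1 and 1. CTGF lies between 2.25 and 3.39 and CYR61 between 1.08 and 3.03, and TEAD4 in the library labelled clone 5, at −1.09, is the one other point beyond a dotted line.

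None of LATS2, AMOTL1 and AMOTL2, whose products restrain YAP, passed the criterion in edgeR or in DESeq2, where 9.58% and 12.1% of all tested genes did. LATS2 (chr13:20973032-21061547), a kinase that phosphorylates YAP and is itself a YAP target, was at 15.7, 15.2, 19.5 and 14.2 CPM (log2 fold change 0.05 ± 0.36 SE; edgeR adjusted p = 0.968). AMOTL1 (chr11:94706431-94876753), an angiomotin that binds YAP at junctions, was at 65.2, 44.7, 60.4 and 56.7 CPM (−0.27 ± 0.30 SE; edgeR adjusted p = 0.744). AMOTL2 (chr3:134355874-134375479), an angiomotin and YAP target, was at 102, 90.8, 103 and 60.0 CPM (−0.27 ± 0.39 SE; edgeR adjusted p = 0.802). The 3 genes did not share an order of the clones. AMOTL1 was lowest in clone 1 and AMOTL2 and LATS2 in clone 6. With upper quartile scaling, which moved the median of all genes by 0.10, AMOTL1 in the library labelled clone 5 was above parental cells, at 0.02. AMOT, the remaining angiomotin, had 36, 0, 499 and 17 counts, so that its ratio to parental cells was at most 0.0850 in clone 1 (upper exact 95% limit) and was 11.8 in the library labelled clone 5 (8.37 to 17.0).

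**Figure D4:**
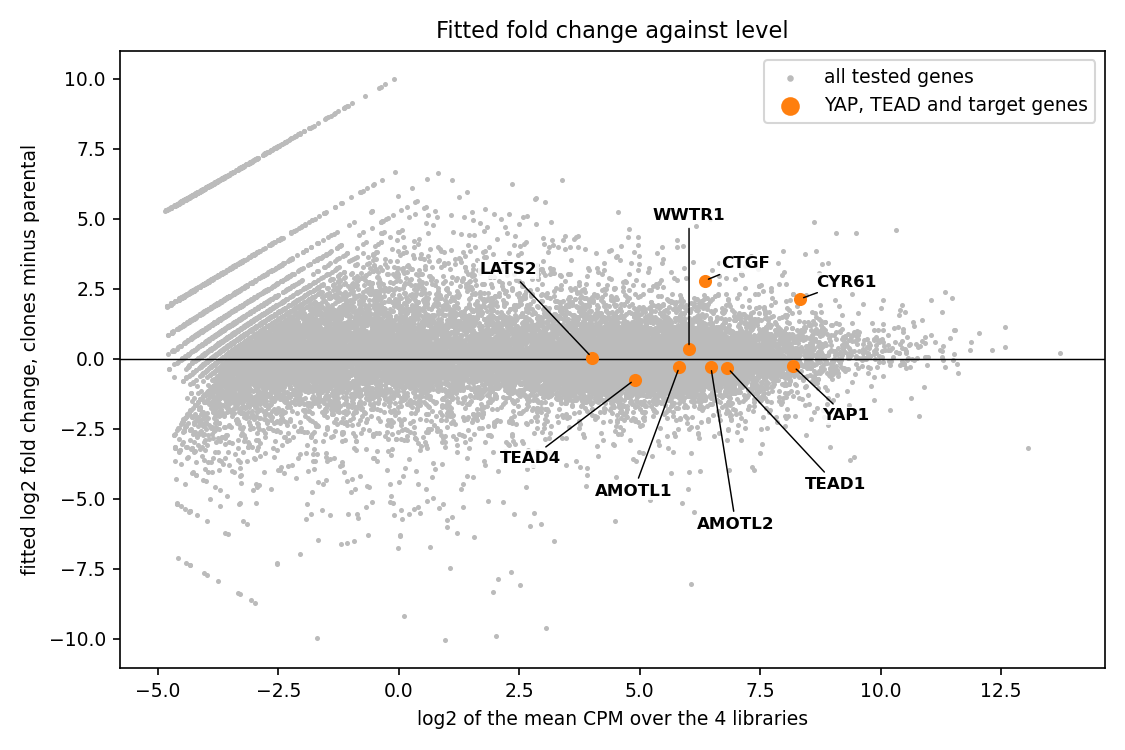
Fitted log2 fold change, clones against parental, over the log2 of the mean CPM in 4 libraries, for the 22511 tested genes (grey) and the 9 tested genes of YAP, TEAD and their targets (orange). CTGF (2.79) and CYR61 (2.14) lie above the mass of genes and the other 7 lie between −0.75 and 0.36.

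Among the upstream Hippo genes more were lower than higher in every clone. All 26 genes of the list were tested, and 13 were lower in every clone and 6 higher in every clone, beside 30.5% and 28.6% of all genes. The median log2 fold change was −0.17, and 0.10 over all tested genes. The criterion was passed by 2 of the 26 (7.69%, beside 9.58% of all genes), both lower. WWC1, which encodes KIBRA, a scaffold that activates LATS, was at 103, 49.1, 16.8 and 13.3 CPM (−1.97 ± 0.82 SE; edgeR adjusted p = 0.435). AJUBA, which inhibits LATS, was at 271, 142, 120 and 73.6 CPM (−1.27 ± 0.44 SE; edgeR adjusted p = 0.384). With RLE scaling the criterion was passed by 1 gene of the list. Named for their level in parental cells, MAP4K4, a kinase that acts on LATS, was at 246, 174, 206 and 136 CPM, and MOB1A, a LATS cofactor, at 124, 157, 128 and 121 CPM. LATS1, the other LATS kinase beside LATS2, was at 49.7, 23.6, 23.5 and 41.1 CPM, lower in every clone (−0.75 ± 0.44 SE; edgeR adjusted p = 0.546).

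A list of 22 common YAP and TAZ targets held genes that differed in both directions. Of the 21 tested, 7 were higher in every clone and 6 were lower in every clone, beside 28.6% and 30.5% of all tested genes. The other 8 were mixed, and the median log2 fold change was 0.05, beside 0.10 over all genes. The criterion was passed by 5 genes (23.8%, beside 9.58% of all genes), 3 higher and 2 lower, beside 4.24% and 5.34% of all genes. Beside CTGF, the higher ones were F3, which encodes tissue factor, at 19.7, 57.0, 59.3 and 44.4 CPM (1.44 ± 0.30 SE; edgeR adjusted p = 0.332), and CCDC80, a matrix protein, at 38.6, 171, 560 and 257 CPM (3.09 ± 0.72 SE; edgeR adjusted p = 0.353). The lower ones were GADD45A, which acts in growth arrest and DNA damage, at 286, 75.1, 73.9 and 40.9 CPM (−2.17 ± 0.44 SE; edgeR adjusted p = 0.304), and FJX1, a secreted regulator, at 227, 112, 76.1 and 110 CPM (−1.19 ± 0.35 SE; edgeR adjusted p = 0.345). The order of the clones differed by gene: CCDC80 was highest in the library labelled clone 5, and CTGF in clone 1. Without clone 1 the criterion was passed by 8 of the list and by 3399 of all genes, against 2157 with it. In the promoter windows of this list, 9 of 18 (50%) held the TEAD sequence, beside 14% of all windows. The matching windows of CTGF, ANKRD1, AMOTL2 and LATS2, already shown above, are among these 9.

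**Figure D5:**
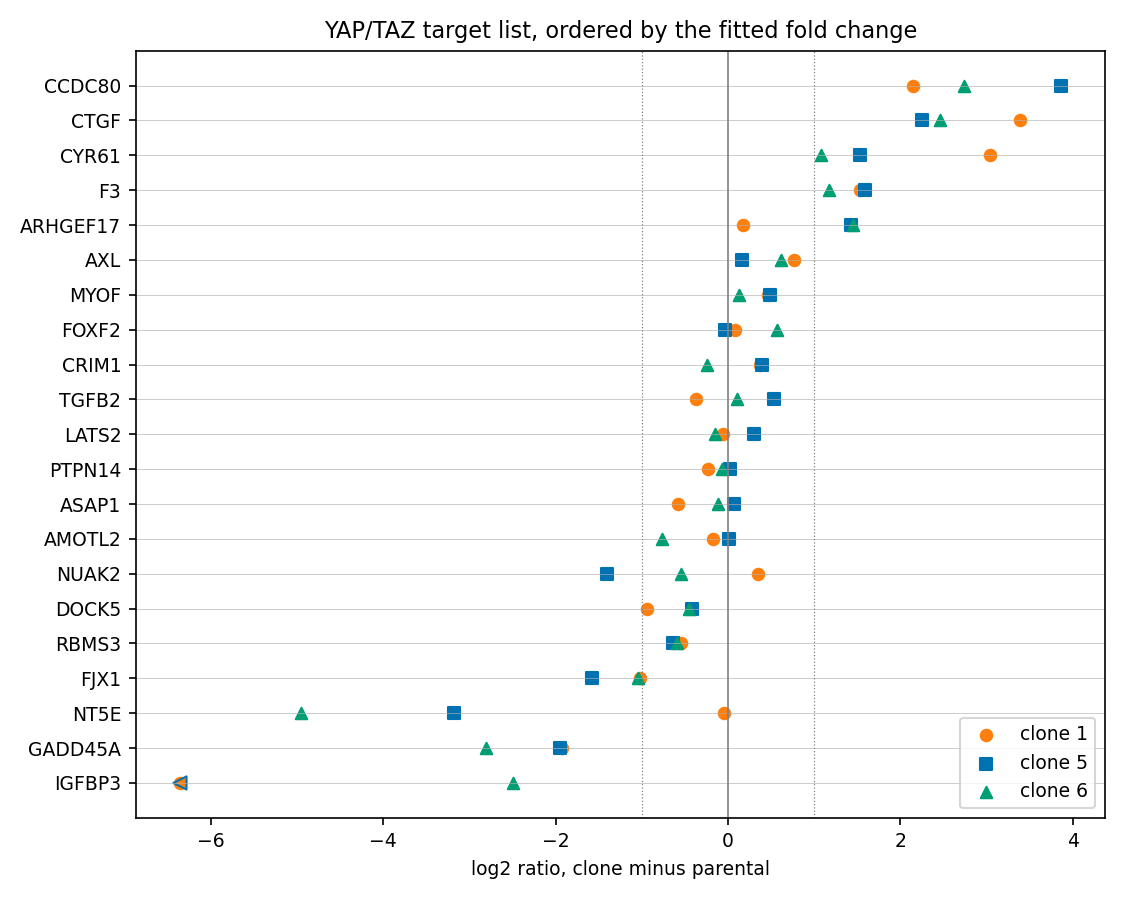
Log2 ratio of each clone to the parental library for the 21 tested genes of the YAP and TAZ target list, in order of the fitted fold change. The open triangle marks the upper 95% limit for IGFBP3 in the library labelled clone 5, where it had 0 counts. CCDC80, CTGF, CYR61 and F3 lie above 1 in every clone and GADD45A, FJX1 and IGFBP3 lie below −1.

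CTGF and CYR61 belong to the CCN family of secreted matrix proteins, and all 6 members of the family were tested. The criterion was passed by 2 (33.3%, beside 9.58% of all genes), or by 1 of 4 without CTGF and CYR61. Beside CTGF this was WISP2 (CCN5), which had 16 counts in parental cells and 311, 1481 and 1140 in the clones (5.72 ± 1.02 SE; edgeR adjusted p = 0.332). NOV (CCN3) was at 51.9, 70.3, 159 and 250 CPM (1.62 ± 0.71 SE; edgeR adjusted p = 0.501), above parental cells in each clone. In DESeq2 4 of the 6 genes passed the criterion, with CYR61 and NOV added, beside 12.1% of all tested genes. WISP1 (CCN4) was at 21.8, 15.8, 17.8 and 22.1 CPM, and WISP3 had 12, 11, 26 and 13 counts. The median log2 fold change of the family was 1.88, and 0.93 without CTGF and CYR61, beside 0.10 over all tested genes. WISP2 and NOV were lowest among the clones in clone 1, where CTGF and CYR61 were highest.

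The genes beside each of the 10 on the chromosome, the nearest on either side that reached 10 CPM in some library, were read for comparison. Of 20 neighbours 1 was over 1 on the log2 scale above parental cells in every clone and 2 were as far below. Of all tested genes, 7.37% were that far above and 6.25% that far below. The neighbours of CYR61 were DDAH1 (61.1, 73.8, 49.7 and 32.3 CPM) and ZNHIT6 (66.1, 46.7, 38.7 and 25.4 CPM), both below parental cells in clone 6 and the library labelled clone 5, where CYR61 was above them. DDAH1 and ZNHIT6 lie 2.40 and 65.5 kilobases from CYR61. The neighbours of CTGF were ENPP1 (9.75, 15.4, 22.6 and 24.1 CPM), 53.0 kilobases away, and STX7 (28.1, 37.2, 24.0 and 37.8 CPM), 494 kilobases away. The neighbour far above parental cells was TM4SF1, a membrane protein 139 kilobases from WWTR1, at 54.0, 484, 543 and 671 CPM. The 2 far below were BIRC3 and AC125807.2. BIRC3, an inhibitor of apoptosis 84.0 kilobases from YAP1, was at 33.8, 13.9, 3.34 and 3.11 CPM. AC125807.2, 0.764 kilobases from TEAD4, was at 29.1, 13.0, 11.3 and 7.07 CPM. TEAD4 and AC125807.2 were both lowest in clone 6 and the library labelled clone 5.

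PTPRC, given above, passed the criterion in the same direction as CTGF (log2 fold change 4.01), as did 4.24% of all tested genes in edgeR. Its 3 clone values were above the parental value, as were those of 28.6% of tested genes. Of the 6 further leukocyte genes tested, none passed the criterion, 1 was higher in every clone, 2 were lower and 3 were mixed. The part of other cells in the values of CTGF and CYR61 was not tested.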

How the data were processed

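RNA of SUM159 cells (4 libraries: parental, and NOS2KO clones 1, 5 and 6) was sequenced after poly(A) selection. The authors deposited raw gene counts. The submitters' processing notes name bcl2fastq 2.17, Trimmomatic 0.36, STAR 2.5.2b, featureCounts of Subread 1.5.2, DESeq2 and GRCh38; the strand setting is not given in the sources used here. Gene symbols came from GENCODE v29. Genes were filtered with edgeR 4.0.16 (R 4.3.3), scaled by TMM and fitted with the quasi-likelihood test (common dispersion 0.319, 2 residual and 2.75 prior degrees of freedom); p-values were adjusted by Benjamini-Hochberg over 22511 genes. DESeq2 1.42.0, other scalings, filters, dispersion settings and leave-one-out fits were alternatives. Per-clone ratios carry exact 95% Clopper-Pearson intervals. The code was tested on simulated data. Genes named were the 10, those of each list past the criterion (topped up to 4 by parental level per kilobase), neighbours, and the 3 genes nearest in pattern to CYR61 and CTGF. ANKRD1 had too few counts for the last. IGFBP3, LATS1, CNN1, ACTG2 and SRF were named after their values were seen. The genes and lists were chosen with earlier results of these data known. One leukocyte gene that was looked at is not reported here.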

Additional observations from a re-analysis of the deposited data

How the results depend on the processing

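With 2 residual degrees of freedom, few values passed adjustment. An adjusted p under 0.05 was reached by 1 gene in edgeR, by 6 with no filter on low counts, by 5 with the bias-adjusted quasi-likelihood method, by 1095 in DESeq2 and by 0 in each fit that left out a clone. The criterion was passed by 1466 to 3399 genes when a clone was left out, with 3399 without clone 1. Of the 9 tested genes it was passed by 1 in edgeR, by 2 with no filter and by 2 in DESeq2. The counts over all genes were 2157, 2623 and 2735. Without clone 1 it was passed by 3 of the 9, where TEAD4 joined CTGF and CYR61, beside 3399 of all genes. Without the library labelled clone 5 it was passed by 1 of the 9 and without clone 6 by 2, beside 1684 and 1466 of all genes. CYR61 was the gene added with no filter, in DESeq2 and without clone 6 (2.47). Of the target list 5 to 8 genes passed when a clone was left out. Of the upstream Hippo list 1 passed with RLE scaling, 1 with robust estimation and 0 to 3 when a clone was left out. The target list median was 0.15 with upper quartile scaling, 0.14 with a filter of 1 CPM, −0.0794 to 0.10 when a clone was left out (the lowest without the library labelled clone 5) and −0.0821 for clone 6 alone. Fold changes changed sign for WWTR1 in clone 1 alone (−0.21), for AMOTL2 in the library labelled clone 5 alone (0.0141), and for LATS2 without the library labelled clone 5 (−0.0794) and in clone 6 alone (−0.12). The cause of these changes was not tested. Of the comparisons of single genes 119 kept their direction and call, and CTGF passed the criterion under each alternative that gave a p. No paired analysis was possible because there is only 1 parental library.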

Other observations

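Targets of SRF and its cofactors MRTF, which respond to the actin cytoskeleton and share several genes with YAP, were also read. Of the 12 genes of that list, all tested, 9 were higher in every clone than in parental cells and 1, SRF itself, was lower. These stand beside 28.6% and 30.5% of all tested genes. The 9 include CNN1, with 1, 2, 15 and 3 counts, and ACTG2, with 47, 395, 673 and 69 counts. The median log2 fold change was 1.48, beside 0.10 over all tested genes. The criterion was passed by 3 (25%, beside 9.58% of all genes), all higher, and by 6 in DESeq2, where 12.1% of all genes passed. VCL, which encodes the adhesion protein vinculin, was at 92.0, 251, 366 and 353 CPM in parental cells, clone 1, the library labelled clone 5 and clone 6 (log2 fold change 1.81 ± 0.35 SE; edgeR adjusted p = 0.327). CNN2, a calponin, was at 186, 379, 512 and 395 CPM (1.20 ± 0.34 SE; edgeR adjusted p = 0.365), and FHL2, a cofactor of several transcription factors, was at 39.2, 71.2, 152 and 174 CPM (1.75 ± 0.56 SE; edgeR adjusted p = 0.411). FLNA, the actin crosslinker with the highest level per kilobase of the list, was at 3373, 3462, 3243 and 2298 CPM, lower than in parental cells in 2 of the 3 clones. TAGLN, one of the list, was also among the 3 genes nearest in pattern to CYR61.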
